A study of Mus musculus with 4 samples.

Results

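The nuclear genes of oxidative phosphorylation were followed in single-cell RNA sequencing of immune cells of the mouse spinal cord. They were taken by symbol, as every row starting with Nduf, Uqcr, Sdh (a to d), Cox4i, Cox5, Cox6, Cox7, Cox8 or Atp5, except Cox6a2, and no row of a pseudogene (-ps) was found in these families. This gave 92 of the 31053 rows. By complex, 36 rows belong to complex I, 4 to complex II, 8 to complex III, 18 to complex IV and 16 to complex V, and a further 8 are assembly factors of complex I (Ndufaf). Cox7a2l, a factor that helps complexes III and IV to associate, and Atp5s, which is named like an ATP synthase gene, were kept apart. Over all cells kept, 88 rows held at least 200 UMIs (unique molecular identifiers, each marking 1 captured transcript). Cox7b2 and Cox8c had none, and Cox8b and a second identifier of Atp5o had 4 UMIs in sum. Each library detected 89 of the 92 rows.

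Oxidative phosphorylation is the work of 5 complexes of the inner mitochondrial membrane. Complexes I and II take electrons from NADH and succinate, complex III passes them to cytochrome c, complex IV hands them to oxygen, and complex V (ATP synthase) uses the proton gradient so built to make ATP. Complexes I, III, IV and V are made of proteins from both the nuclear and the mitochondrial genome, while complex II is wholly nuclear and is also an enzyme of the tricarboxylic acid (TCA) cycle. Microglia are the resident macrophages of the central nervous system, and activated macrophages are known for shifting their use between glycolysis and respiration.

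CD45+ cells were sorted from the spinal cords of C57BL/6 mice aged 3 months and sequenced in 4 libraries, 1 per condition. The 2 sham libraries came from mice that the study calls sham, by its methods with a laminectomy only. Their labels name healthy spinal cords. These 2 libraries were prepared with the standard protocol (standard sham) or with actinomycin D (ActD), which blocks transcription during preparation (ActD sham). The other 2 came 3 and 14 days post injury (dpi) from mice with a moderate contusion at thoracic segment 10. The study describes ActD-based sequencing for cells of both uninjured and injured cords (45 µM while the tissue was digested, 3 µM in the cold), whereas the labels name it for 1 sham library only. The ActD sham was therefore taken as the control. The study used 30 mice of both sexes, and how many were pooled in each library is not given in the sources used here. With 1 library per condition no test was possible, and all intervals are exact 95% intervals that cover counting error only.

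After filtering, 5099 cells of the standard sham, 2139 of the ActD sham, 8342 at 3 dpi and 9208 at 14 dpi were kept, with a median of 7471 to 9672 UMIs per cell and 25826595 to 98689927 UMIs per library. Library pairs shared 3 to 36 cell barcodes. Clusters were made within each library without the 92 genes and the cell cycle genes, and were named from marker genes, so each class name below stands for cells that look like that type by those markers. A cluster whose microglial markers had a mean scaled level above 0.6 was not considered for the name of injury macrophages at the first step. Some clusters got no name and are in no class below. They held 265 cells of the standard sham, 153 of the ActD sham, 1447 at 3 dpi and 180 at 14 dpi. The 11 microglial markers summed to 29327 CPM (UMIs per 1000000 UMIs of the class) in the microglia of the ActD sham, 16745 in the standard sham, 6912 at 3 dpi and 12906 at 14 dpi. Microglia at 3 dpi also held 9776 CPM of the 11 injury macrophage markers, against 510 CPM in the ActD sham. T cells at 3 dpi held 4213 CPM of the same markers, and the part of free RNA in any level below was not tested.

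The promoters of some members named below are shown as background. Whether promoter sequence goes with the change of a member was not tested. Windows of 300 bases around the start were found in RefSeq (GRCm38.p6) for 76 of the 91 symbols, in 81 windows. Both strands were searched for cores bound by factors long tied to respiratory genes. The core of nuclear respiratory factor 1 (CATGCGC) stood in 18.5% of the member windows and in 3.91% of all 32851 windows. An ETS core that GABP binds (CCGGAAG) stood in 22.2% against 8.86%, and a YY1 core (AAGATGGC) in 13.6% against 2.75%. An ERR core (TCAAGGTCA) stood in 2.47% against 0.423%, and any of the 4 in 44.4% against 14.6%. The end of the ETS core can overlap the start of the YY1 core. In the stretches before the first exon printed here, capitals mark a core on either strand: GCGCATG, the reverse complement of the nuclear respiratory factor 1 core, in Ndufb6, a complex I subunit (chr4:40279422-40279541, minus strand), and the ETS core in Uqcr11, a small subunit of complex III (chr10:80406831-80406950, minus strand). Atp5g1, a gene for the c ring of ATP synthase (chr11:96075671-96075790, minus strand), and Cox7a1, an isoform of complex IV best known from heart and muscle (chr7:30184024-30184143, plus strand), hold none of the 4 in the bases shown. The stretches taken in the same way for Atp5k, Atp5o, Uqcr10, Ndufaf8, Ndufs3 and Ndufs6 are not printed and held none of the 4 either. The printed stretches thus hold a core more often than all the stretches taken. Only bases that no annotated exon covers were taken, so the bases next to the start were not always among them. The stretch of Ndufs3 held 62 bases ending 189 before the start, and that of Ndufs6 112 bases ending 139 before it. Ndufa12, also named below, gave no stretch. A match is only a match of letters.
Ndufb6: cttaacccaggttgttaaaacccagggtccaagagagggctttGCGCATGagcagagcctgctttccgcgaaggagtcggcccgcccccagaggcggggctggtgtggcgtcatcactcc
Uqcr11: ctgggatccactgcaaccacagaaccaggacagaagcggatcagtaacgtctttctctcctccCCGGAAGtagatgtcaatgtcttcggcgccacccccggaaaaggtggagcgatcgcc
Atp5g1: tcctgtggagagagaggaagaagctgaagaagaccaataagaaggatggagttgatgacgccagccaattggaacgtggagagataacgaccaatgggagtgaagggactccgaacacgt
Cox7a1: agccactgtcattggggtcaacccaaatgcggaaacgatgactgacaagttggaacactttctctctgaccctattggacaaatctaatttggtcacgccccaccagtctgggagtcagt

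In the ActD sham, the summed level of the 92 genes was lowest in neutrophils and microglia. It was 9324 CPM (9194 to 9456) in neutrophils, 12068 CPM (12016 to 12121) in microglia, 14044 CPM (13868 to 14222) in macrophages and 17654 CPM (17255 to 18059) in B cells. None of these intervals touched. In the standard sham the order of neutrophils and microglia was the other way round, at 9296 CPM (9204 to 9389) and 9012 CPM (8973 to 9052). The highest sums of that library were in precursors and mast cells, with 26202 CPM in myeloid progenitors, 26500 CPM in pro-B and pre-B cells and 28348 CPM in mast cells and basophils. At 14 dpi myeloid progenitors held 24465 CPM and pro-B and pre-B cells 28183 CPM. Monocytes of that library held 22397 CPM, natural killer cells 20382 CPM, T cells 20078 CPM and dendritic cells 19275 CPM.

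**Figure D1:**
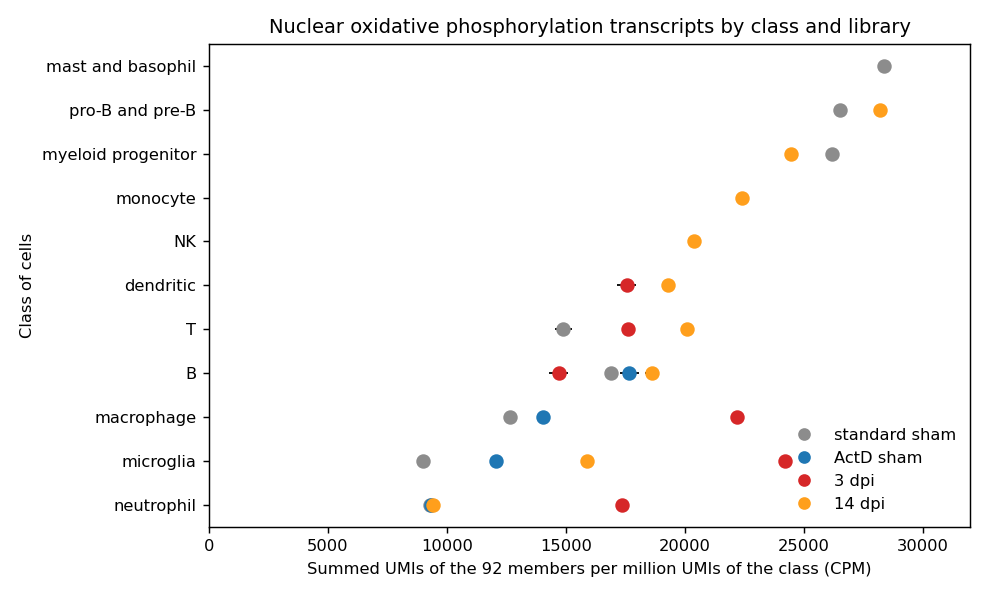
Summed level of the 92 members (x axis, CPM) for each class of cells (y axis), with 1 point per library. Microglia run from 9012 CPM in the standard sham to 24226 CPM at 3 dpi, while B cells stay between 14699 and 18620 CPM in the 4 libraries.

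Microglia held 24226 CPM (24157 to 24294) of these transcripts at 3 dpi, from 845 cells, against 12068 CPM in the 1666 microglia of the ActD sham. The sum was 2.01-fold higher, a log2 ratio of 1.01, while the median log2 ratio of all 9263 genes that reached 200 UMIs in these libraries was -0.53. The sum of the members and the median gene thus moved in opposite directions on the CPM scale. Of all these genes 30.8% had a log2 ratio above 0. Relative to the median log2 ratio the sum was higher by 1.54 on the log2 scale. The median of all genes was also -0.52 in microglia of the standard sham over the ActD sham, where 44.4% of genes fell past 1.5-fold. A median of this size was thus also seen without injury, in a pair that shares the ActD sham. At 3 dpi, of 84 members with at least 200 UMIs, 60 rose past 1.5-fold and 2 fell past it, where 17.6% of all genes rose and 47.7% fell. Measured from the median of all genes, 74 members rose and 0 fell, against 29.3% and 27.2% of all genes. At a threshold of 2-fold 37 members rose, where 11.1% of all genes rose and 31.3% fell, and with a minimum of 20 UMIs 61 rose past 1.5-fold, against 20.7% of all genes. The median length of the longest transcript was 1186 bases for the members and 3422 bases for all genes. Longer genes tended to lower ratios (Spearman correlation -0.348 over all genes). The part of transcript length in the difference between members and all genes was not tested. The median share of a cell's UMIs was 1.14% in the ActD sham and 2.40% at 3 dpi. Marker levels of the microglia also differed between these libraries, as given above. A change within a cell and a change of cells therefore cannot be told apart.

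Complexes I, III, IV and V moved by nearly the same amount in these microglia, and complex II by less. The log2 ratio of the summed level was 0.98 (0.97 to 0.99) for complex I, 1.04 (1.02 to 1.07) for complex III, 1.09 (1.08 to 1.11) for complex IV and 1.10 (1.08 to 1.11) for complex V. Past 1.5-fold rose 27 of 36 members of complex I, 5 of 8 of complex III, 11 of 12 of complex IV and 15 of 15 of complex V. The ratio was 0.30 (0.25 to 0.34) for complex II, where Sdhc, a membrane anchor, rose from 52.8 to 98.0 CPM. The other 3 genes of complex II stayed within 1.5-fold. Sdha, the flavoprotein, had 105 CPM in the ActD sham and 96.4 CPM at 3 dpi, Sdhb, the iron-sulfur subunit, 107 and 157 CPM, and Sdhd, the second anchor, 66.7 and 55.6 CPM. The 8 assembly factors of complex I summed to a log2 ratio of 0.12 (0.06 to 0.18). Among them Ndufaf2 rose from 22.5 to 50.2 CPM and Ndufaf4 fell from 39.2 to 23.7 CPM, so this group did not move as one. In the standard sham Ndufaf2 had 16.5 CPM and Ndufaf4 14.9 CPM. The lower level of Ndufaf4 at 3 dpi thus holds against the ActD sham only.

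**Figure D2:**
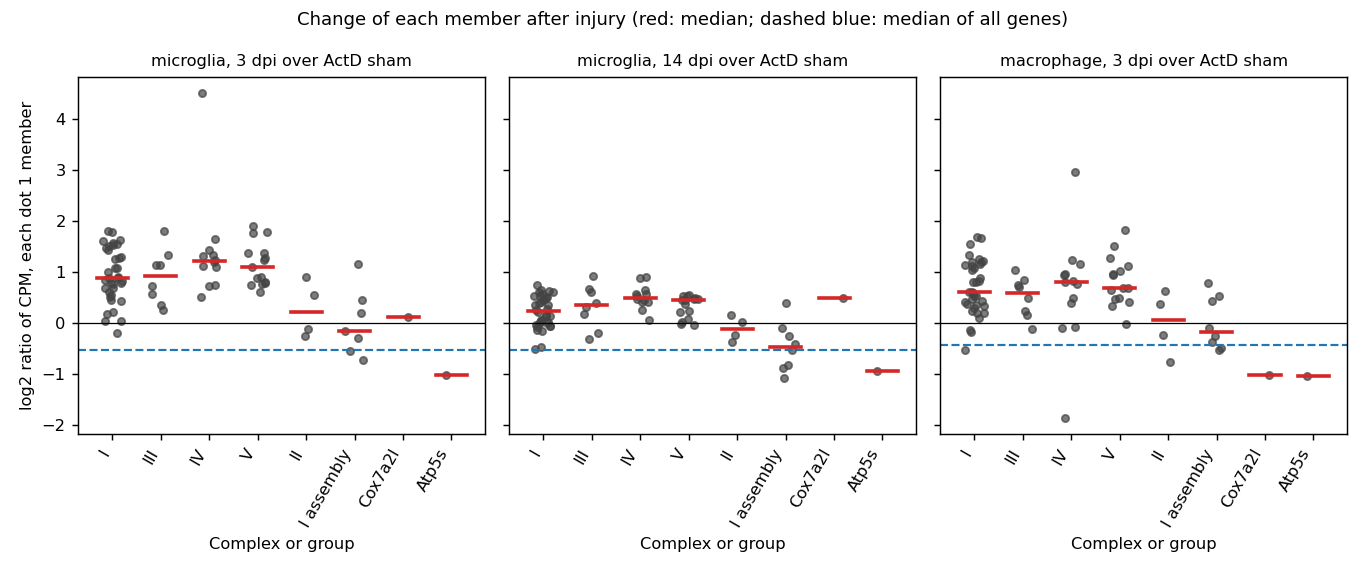
log2 ratio of CPM of each member that reached 200 UMIs (y axis, 1 dot per member) by complex or group (x axis) in microglia at 3 dpi, microglia at 14 dpi and macrophages at 3 dpi, each over the ActD sham. Red bars are medians and the dashed line is the median of all genes, at -0.53, -0.52 and -0.43. In microglia at 3 dpi the dots of complexes III, IV and V all lie above 0.

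Atp5k, a membrane subunit of ATP synthase, rose from 125 CPM (120 to 131) in the ActD sham to 468 CPM (459 to 478) at 3 dpi, a log2 ratio of 1.90 (1.83 to 1.97). Uqcr10, a small subunit of complex III, rose from 123 to 430 CPM (log2 ratio 1.81, 1.74 to 1.88). Ndufa12, an accessory subunit of complex I, rose from 72.6 to 254 CPM (log2 ratio 1.80, 1.71 to 1.90). Atp5o, the stalk subunit that links the head of ATP synthase to the membrane part, rose from 104 to 357 CPM (log2 ratio 1.79, 1.71 to 1.86). Each of these 4 was measured with over 1000 UMIs in both libraries. Cox7a1 had the largest ratio but rested on 9 UMIs in the ActD sham and 247 at 3 dpi, or 0.526 and 12.5 CPM (log2 ratio 4.57, 3.62 to 5.72). At the other end, Atp5s went from 8.18 to 4.04 CPM (log2 ratio -1.02), and the assembly factors Ndufaf7 and Ndufaf6 had log2 ratios of -0.55 and -0.30. Ndufa6, an accessory subunit of complex I, stood at 148 CPM in the ActD sham and 129 CPM at 3 dpi, the lowest ratio among the 36 members of that complex.

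Within complexes the parts did not move alike. In microglia at 3 dpi the 7 nuclear core subunits of complex I, which carry the flavin and iron-sulfur centres, had a summed log2 ratio of 0.55 (0.52 to 0.59), with 3 of 7 past 1.5-fold, and the 29 accessory subunits one of 1.04 (1.03 to 1.05), with 24 of 29 past it. The core subunit Ndufs1 had 36.7 CPM (33.9 to 39.7) in the ActD sham and 37.6 CPM (34.9 to 40.4) at 3 dpi, a difference within counting error, and Ndufv1 was the core subunit with the highest log2 ratio, at 1.25. In complex III, the core proteins and the Rieske iron-sulfur protein (Uqcrc1, Uqcrc2, Uqcrfs1) had a summed log2 ratio of 0.40 (0.35 to 0.46) with 0 of 3 past 1.5-fold, and the 5 other subunits one of 1.18 (1.16 to 1.21) with 5 of 5 past it. In complex V the 5 genes of F1 (the catalytic head with the central stalk) gave 0.79 (0.77 to 0.82). The membrane part and peripheral stalk gave 1.27 (1.25 to 1.28). The core or F1 part was thus the lower of the pair in all 3 complexes, on the CPM scale and relative to any common scaling. Members with longer transcripts tended to lower ratios, with a Spearman correlation of -0.166 over 84 members and -0.348 over all genes tested. These are correlations over genes, which are not independent replicates, and the part of transcript length in the difference between parts was not tested.

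**Figure D3:**
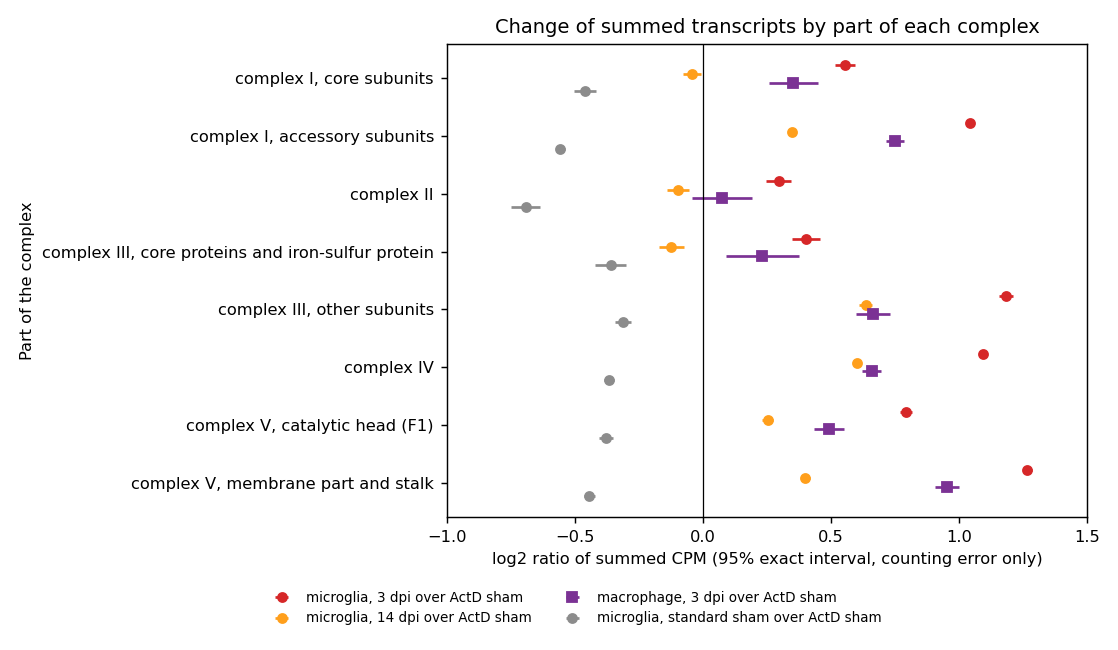
log2 ratio of summed CPM (x axis, bars are exact 95% intervals for counting error) for each part of a complex (y axis) in microglia at 3 dpi, at 14 dpi and in the standard sham, and in macrophages at 3 dpi, each over the ActD sham. In the 3 injury comparisons each core or F1 part lies to the left of the other part of the same complex, as for complex III in microglia at 3 dpi with 0.40 and 1.18.

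Several measures moved with the 3 dpi sum. Microglia at 3 dpi had a median of 20802 UMIs per cell, against 9376.5 in the ActD sham. Among microglia with 8000 to 16000 UMIs the log2 ratio was 0.82. The 26 proliferation genes summed to 5092 CPM at 3 dpi and 694 CPM in the ActD sham, and all 26 rose past 1.5-fold. In the 194 of 845 microglia at 3 dpi with no UMI of Mki67, Top2a, Cdk1 or Rrm2 the members held 21626 CPM, and in the other 651 cells 24606 CPM. Compared with the microglia of the ActD sham that also lacked these UMIs, at 11952 CPM, the log2 ratio was 0.86. The 20 immediate early genes, which preparation can induce, summed to 6120 CPM in the microglia at 3 dpi, 1215 CPM in the ActD sham and 49248 CPM in the standard sham. Their part in the result was not tested.

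At 14 dpi the microglia held 15896 CPM (15863 to 15929) from 4493 cells, 1.32-fold the level of the ActD sham (log2 ratio 0.40, 0.39 to 0.40) and 0.656-fold that of 3 dpi (log2 ratio -0.61). Of 85 members, 11 rose past 1.5-fold and 4 fell past it, where 7.45% of all genes rose and 44.6% fell. The median log2 ratio of all genes was -0.52, and measured from it 55 members rose and 0 fell, against 16.8% and 11.3% of all genes. With TMM scaling 60 members rose past 1.5-fold, where 18.3% of all genes rose and 9.62% fell. The share of members past 1.5-fold therefore turned on the scale, while the direction of the sum did not. For the standard over the ActD sham, without injury, the log2 ratio of the sum in microglia was -0.42. The median of all genes was -0.52 in that pair too. On the CPM scale the 0.40 at 14 dpi was thus no larger than the difference between the shams. With TMM scaling the values were 0.97 at 14 dpi and 0.12 between the shams. From 3 to 14 dpi 48 of 86 members fell past 1.5-fold and 0 rose, where 19.9% of all genes fell and 21.6% rose and the median log2 ratio was 0.04. Both comparisons of 14 dpi share a library with the one at 3 dpi, the ActD sham or the 3 dpi library itself.

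Uqcrh, Cox4i1 and Cox8a led the members of microglia at 14 dpi. Uqcrh, the hinge protein of complex III, had 318 CPM in the standard sham, 273 in the ActD sham, 451 at 3 dpi and 517 at 14 dpi. Cox4i1, the regulatory subunit IV of cytochrome oxidase, had 549, 488, 1223 and 905 CPM in the same order, and Cox8a, another nuclear subunit of complex IV, 357, 407, 580 and 744 CPM. Uqcrh and Cox8a were thus highest at 14 dpi and Cox4i1 at 3 dpi. The log2 ratios at 14 dpi over the ActD sham were 0.92 (0.88 to 0.97) for Uqcrh, 0.89 (0.86 to 0.92) for Cox4i1 and 0.87 (0.83 to 0.91) for Cox8a. Ndufa1 and Uqcrq followed with 0.75 and 0.67. Atp5k and Ndufa12, which led at 3 dpi, stood at 147 and 81.2 CPM, with log2 ratios of -1.67 and -1.64 over 3 dpi. The 5 lowest ratios over the ActD sham were those of Ndufaf7 (-1.08), Atp5s (-0.94), Ndufaf5 (-0.87), Ndufaf4 (-0.82) and Ndufaf1 (-0.53), of which 4 are assembly factors of complex I. The median of all genes in this comparison was -0.52, so Ndufaf1 lay close to it. By complex, the summed log2 ratios at 14 dpi over the ActD sham were 0.30 for I, -0.10 for II, 0.50 for III, 0.60 for IV, 0.34 for V and -0.31 for the assembly factors. For the standard over the ActD sham, without injury, the assembly factors had -0.83, around a median of all genes of -0.52. At 14 dpi over the ActD sham the core subunits of complex I had -0.04 and the accessory ones 0.35, and in complex III the values were -0.12 and 0.63. Members with longer transcripts tended to lower ratios here too, with a Spearman correlation of -0.356 over 85 members and -0.231 over all genes tested. The part of transcript length in these differences was not tested.

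Clusters of microglia differed in the summed level. At 14 dpi the 4 clusters ran from 14276 CPM in 712 cells to 16656 CPM in the 1789 cells led by Spp1 and Lpl, genes known from reactive microglia, and without that cluster the log2 ratio over the ActD sham was 0.32. In the ActD sham the range was wider, from 4717 CPM in 59 cells with a median of 1234 UMIs to 18010 CPM in 98 cells with a median of 4444 UMIs. Microglia at 3 dpi formed a single cluster. The clusters were made from the same cells, so these values only describe them.

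Macrophages held 22175 CPM (22136 to 22215) at 3 dpi in 3469 cells, 1.58-fold the 14044 CPM of the 145 macrophages of the ActD sham (log2 ratio 0.66, 0.64 to 0.68). The class was not the same kind of cell in both libraries. Border macrophage markers such as Mrc1 and Lyve1 summed to 8452 CPM in the ActD sham and 6890 CPM at 3 dpi, and injury macrophage markers such as Arg1 and Gpnmb to 1747 and 32474 CPM, so a change within a cell and a change of cells cannot be told apart. Of 86 members 43 rose past 1.5-fold and 4 fell, where 15.9% of all genes rose and 43.8% fell and the median log2 ratio was -0.43. Measured from that median, 67 rose and 3 fell, against 27.9% and 26.8%.

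In macrophages complex I had a summed log2 ratio of 0.71, complex III 0.60, complex IV 0.66, complex V 0.79 and complex II 0.07 (-0.04 to 0.19). The core and other parts were again apart, at 0.35 and 0.75 in complex I, 0.23 and 0.66 in complex III and 0.49 and 0.95 in complex V. Atp5g1 rose from 161 CPM (143 to 181) to 567 CPM (561 to 573), and had 157 CPM in the standard sham. Ndufs6, an accessory subunit of complex I, rose from 71.8 to 231 CPM, Ndufa12 from 74.1 to 234 CPM and Ndufb6 from 48.6 to 142 CPM. Cox7a2l fell from 353 CPM (326 to 382) to 173 CPM (170 to 177), with 397 CPM in the standard sham. In microglia the same gene had 377 CPM in the standard sham, 294 in the ActD sham, 316 at 3 dpi and 412 at 14 dpi, so of these 7 values the one in macrophages at 3 dpi was the lowest. Sdhd fell from 77 to 45.7 CPM, and Cox6b2, the testis form of a complex IV subunit, from 11.6 to 3.27 CPM on 20 and 181 UMIs.

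Neutrophils held 9296 CPM in the standard sham, 9324 in the ActD sham, 17367 at 3 dpi and 9430 at 14 dpi. The 3 dpi value stood apart from the other libraries. Its log2 ratio over the ActD sham was 0.90 (0.87 to 0.92), but the median log2 ratio of all genes was 0.77, and 58 of 77 members rose past 1.5-fold and 0 fell where 56.9% of all genes rose and 13% fell. Measured from the median of all genes, 16 members rose and 8 fell, against 29.3% and 29.0%. The 10 neutrophil marker genes filled 301053 CPM of the standard sham, 344878 of the ActD sham, 55438 at 3 dpi and 363995 at 14 dpi, and neutrophils at 3 dpi had a median of 2302 UMIs per cell against 14590 in the ActD sham and 5196 at 14 dpi. Injury macrophage markers held 7277 CPM in neutrophils at 3 dpi and 2276 CPM in the ActD sham, and Ly6g had 25.4 and 626 CPM. As in microglia and macrophages, a change within a cell and a change of cells cannot be told apart, for the sum or for single members. From 3 to 14 dpi the log2 ratio of the sum was -0.88 by the total of all genes and -0.31 with the 10 marker genes left out of the total, and it turned to 0.10 with TMM scaling.

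Some members of neutrophils moved by far more than the median of all genes. Atp5g1 had 47.1 CPM in the standard sham, 34.7 in the ActD sham, 243 at 3 dpi and 40.4 at 14 dpi. Ndufa12 had 22.0, 27.1, 127 and 22.3 CPM in the same order. Both were high at 3 dpi alone, with log2 ratios over the ActD sham of 2.80 (2.46 to 3.17) and 2.23 (1.83 to 2.65). Ndufs3, a core subunit of complex I, and Uqcr11 followed with 1.90 and 1.87. Sdhd had 52.4, 39.9, 30.5 and 41.4 CPM, and so was lowest at 3 dpi. The core subunits of complex I (1.12) were not below the accessory ones (0.83) in neutrophils at 3 dpi. In complex III the core proteins and iron-sulfur protein had 0.47 and the other subunits 1.22. In complex V the F1 part had 0.98 and the membrane part and peripheral stalk 1.0. From 3 to 14 dpi 61 of 77 members fell past 1.5-fold and 0 rose, where 58.3% of all genes fell and 11.3% rose, and the lowest log2 ratios were those of Atp5g1 (-2.59), Ndufa12 (-2.51), Ndufs3 (-2.08) and Ndufv1 (-2.03). Ndufb11 and Uqcrfs1 stood near 0, at 0.18 and 0.08. At 14 dpi over the ActD sham 0 of 71 members rose past 1.5-fold and 3 fell, where 7.57% of all genes rose and 10.1% fell, and the sum differed by 0.02 (-0.01 to 0.04) on the log2 scale.

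In lymphocytes and dendritic cells the summed level moved less. B cells held 16873 CPM in the standard sham, 17654 in the ActD sham, 14699 at 3 dpi and 18620 at 14 dpi. The log2 ratio of B cells at 3 dpi over the ActD sham was -0.26 (-0.31 to -0.21), on 134 and 64 cells, with 0 of 20 members up and 2 down past 1.5-fold where 13.6% of all genes rose and 27.6% fell. At 14 dpi over the ActD sham the log2 ratio of B cells was 0.08, with 1 of 46 members up and 0 down, against 3.81% and 4.12% of all genes. From 3 to 14 dpi the log2 ratio was 0.34 in B cells, 0.19 in T cells and 0.14 in dendritic cells. The medians of all genes in these comparisons were 0.31, 0.23 and 0.34, so the members lay close to all genes in B and T cells and below them in dendritic cells. In B cells 13 of 43 members rose and 1 fell past 1.5-fold, where 33.6% of all genes rose and 8.75% fell. In T cells 8 of 76 members rose and 1 fell past 1.5-fold, against 20.4% and 5.52% of all genes, and in dendritic cells 14 of 73 rose and 2 fell, against 38.4% and 14.3%.

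The 2 sham libraries, which differ in ActD and in software version, give the size of difference seen without injury. The version also differs between the ActD sham (3.1.0) and 3 dpi (3.0.1) and between 3 and 14 dpi (3.1.0), where it cannot be told apart from the injury or the time. Microglia held 9012 CPM in the standard sham and 12068 CPM in the ActD sham, a log2 ratio of -0.42 (-0.43 to -0.41) that turned to 0.12 with TMM scaling and lay 0.10 above the median of all genes (-0.52). The sum is weighted by abundant members. The median log2 ratio of the members was -0.57, and 34 of 83 members lay above the median of all genes. Of 83 members 37 fell past 1.5-fold and 0 rose, where 44.4% of all genes fell and 6.98% rose. Ndufaf1 and Ndufaf4 had the lowest log2 ratios, at -1.64 and -1.40, followed by Ndufb4 (-1.05), Atp5g3 (-1.02) and Sdhd (-1.01). Cox7a2l, Uqcrh and Cox4i1 had positive ones, at 0.36, 0.22 and 0.17. In macrophages the log2 ratio of the sum was -0.15 (-0.18 to -0.12), with 0 of 63 members up and 7 down past 1.5-fold against 9.43% and 26.5% of all genes. Ndufc1, an accessory subunit of complex I, was lowest there with -0.96, and Cox5a, a subunit of complex IV, highest with 0.37. In neutrophils it was -0.00 (-0.03 to 0.02), with 2 of 64 up and 5 down against 21.9% and 16.4%. In B cells it was -0.07, with 0 of 68 up and 5 down against 13% and 10.3%. The 2 members that rose in neutrophils were Cox7a2l, from 95.1 CPM in the ActD sham to 173 CPM in the standard sham, and Uqcrh, from 169 to 257 CPM.

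The member with the most UMIs of each complex followed the sums in part. In microglia Ndufa13, an accessory subunit of complex I, had 163 CPM in the standard sham, 212 in the ActD sham, 449 at 3 dpi and 328 at 14 dpi. Atp5e, the epsilon subunit in the F1 part of ATP synthase, had 274, 396, 692 and 571 CPM in the same order, and Sdhb 64.0, 107, 157 and 119.6 CPM. All 3 were highest at 3 dpi and lowest in the standard sham, as the sum was. Uqcrh and Cox4i1, given above, had the most UMIs of complexes III and IV. In microglia both were lowest in the ActD sham, and Uqcrh was highest at 14 dpi. Ndufaf8, the assembly factor with the most UMIs, had 28.5, 46.4, 63.2 and 60.8 CPM. In neutrophils Atp5e had 314, 358, 767 and 385 CPM and Ndufa13 226, 243, 439 and 263 CPM.

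Complexes I, IV and V kept nearly constant shares of the summed transcripts, while the shares of complexes II and III varied more in proportion. Over the 27 pairs of class and library with at least 50 cells, complex I held 27.1% to 32.2% of the members' UMIs, complex III 7.89% to 11.0%, complex IV 24.3% to 29.7% and complex V 26.5% to 31.0%. Complex II held 1.05% to 2.75%, from dendritic cells at 3 dpi to microglia of the ActD sham. Cox7a2l alone held 0.782% in macrophages at 3 dpi and 4.18% in microglia of the standard sham. Across the same 27 points the log2 sum of complex I had a Pearson correlation of 0.963 with complex III, 0.978 with complex IV, 0.984 with complex V and 0.858 with complex II. Complex II had 0.821 to 0.858 with the other complexes. The points share libraries, and all sums of a point share its total, so these values are a description only.

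**Figure D4:**
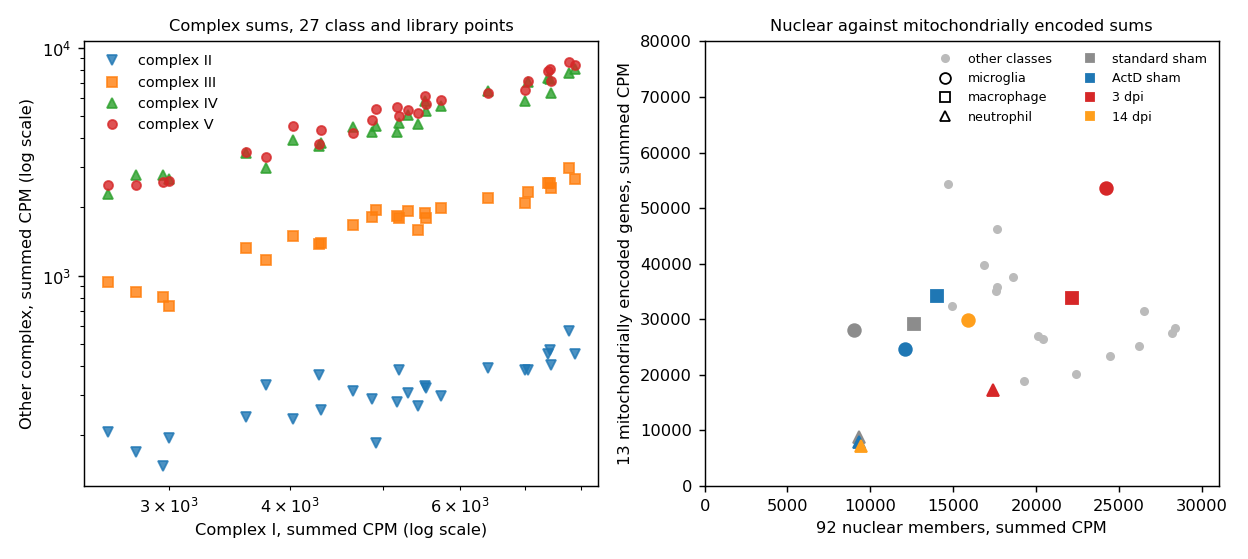
Left, summed CPM of complexes II to V (y axis, log scale) against that of complex I (x axis, log scale) for the 27 pairs of class and library with at least 50 cells. Right, summed CPM of the 13 mitochondrially encoded genes (y axis) against that of the 92 nuclear members (x axis), where neutrophils lie low on the y axis, at 7266 to 17235 CPM.

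The mitochondrially encoded subunits did not follow the nuclear ones in every class. Across the 27 points their summed log2 level had a correlation of 0.488 with that of the members. In microglia the 13 genes summed to 28074 CPM in the standard sham, 24641 in the ActD sham, 53645 at 3 dpi and 29799 at 14 dpi, and 11 of 13 rose past 1.5-fold at 3 dpi over the ActD sham. Microglia at 3 dpi were thus high in both sets, and the standard sham was low in the nuclear set only. In macrophages the mitochondrial sum was 34189 CPM in the ActD sham and 33819 CPM at 3 dpi, while the nuclear sum rose 1.58-fold. The ratio of mitochondrial to nuclear UMIs was 2.4 and 1.5 in these macrophages, 2.0 and 2.2 in microglia of the same libraries and 0.8 and 1.0 in neutrophils. Cells with over 10% mitochondrial UMIs had been removed, which limits this sum.

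Other mitochondrial and metabolic lists gave a scale for the members in microglia at 3 dpi over the ActD sham. Mitochondrial ribosomal proteins, which translate the mitochondrial subunits, had a summed log2 ratio of 0.73, with 42 of 77 past 1.5-fold upward and 2 downward. TCA cycle enzymes had 0.29, with 2 of 16 up and 1 down; Mdh2, a malate dehydrogenase, had 1.09 and Suclg2 had -0.59. Genes of ADP exchange and ATP synthase regulation had 0.79, with 7 of 9 up, led by Atpif1, an inhibitor of ATP synthase, at 1.58. Electron carriers and cytochrome oxidase assembly factors had 0.68, with 8 of 27 up and 2 down, from Cox15 at -1.16 to Coq7, an enzyme of ubiquinone synthesis, at 2.64. Import and cristae genes had 0.54, with 7 of 17 up and 2 down, from Tomm6 at -1.01 to Chchd10 at 2.0. Glycolysis genes had 1.70, above the 1.01 of the members, with 10 of 14 up and 1 down, from Hk2 at -0.89 to Pfkp at 2.63. Regulators of mitochondrial biogenesis had -0.95, with 0 of 8 up and 5 down, and Gabpa, Yy1 and Nrf1, whose cores were searched for in the promoters, had -1.22, -1.20 and -0.50. Of all genes in this comparison 17.6% rose and 47.7% fell, around a median of -0.53, so the regulators lay nearer to all genes than the members did.

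At 14 dpi over the ActD sham the lists separated further in microglia. The summed log2 ratio was 0.05 for mitochondrial ribosomal proteins, with 1 of 77 up and 8 down, -0.30 for the TCA cycle, with 0 of 16 up and 2 down, and 0.51 for glycolysis, with 8 of 15 up and 1 down. Regulators of biogenesis had -0.68, with 0 of 10 up and 7 down, where 7.45% of all genes rose and 44.6% fell around a median of -0.52. Cytosolic ribosomal proteins had 0.67 at both times, with 48 of 84 up at 3 dpi and 59 of 84 up at 14 dpi. The members, at 0.40, lay between the ribosomal proteins of the cytosol and those of mitochondria. In macrophages at 3 dpi glycolysis had 2.21, the TCA cycle 0.27, mitochondrial ribosomal proteins 0.45 and regulators of biogenesis -0.82. Across the 27 points the members had a correlation of 0.975 with mitochondrial ribosomal proteins, 0.883 with the TCA cycle, 0.626 with proliferation genes and 0.0632 with glycolysis.

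Of members that have a tissue or hypoxia isoform, the isoform did not exceed 24.6 CPM in microglia, macrophages and neutrophils. Cox4i1 had 341 to 1223 CPM in the microglia, macrophages and neutrophils of the 4 libraries, and Cox4i2, the form linked to low oxygen, at most 2.22 CPM, in microglia at 3 dpi. Ndufa4 had 118.9 to 531 CPM, and Ndufa4l2, its hypoxia partner, at most 0.79 CPM, in macrophages at 3 dpi. Over all cells kept in a library both were highest in the ActD sham, with 3.60 CPM of Cox4i2 against 1.11 at 3 dpi and 7.71 CPM of Ndufa4l2 against 0.69. Nearly all of those UMIs lay outside the 3 classes, which held 3 of the 93 UMIs of Cox4i2 in the ActD sham, and of Ndufa4l2 only 3 in microglia and 1 in neutrophils. Cox6b1 had 194 to 639 CPM and Cox6b2 0.48 to 14.8 CPM. Over all cells kept of the standard sham Cox6b2 had 22.8 CPM, which is above that range. Cox7a1 had 24.6 CPM in macrophages, 12.5 in microglia, 5.80 in neutrophils and 4.51 in T cells at 3 dpi, and 0 to 2.89 CPM where those classes were found in the shams. At 14 dpi it had 1.26 CPM in microglia and 0.36 CPM in neutrophils. In T cells, where it is not known to act, no difference can be read at this depth: Cox7a1 had 0 UMIs in T cells of the standard sham, which allows up to 6.44 CPM. T cells at 3 dpi also held 4213 CPM of injury macrophage markers, against 830 CPM in the standard sham and 32474 CPM in macrophages at 3 dpi, and the part of RNA from other cells was not tested.

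**Figure D5:**
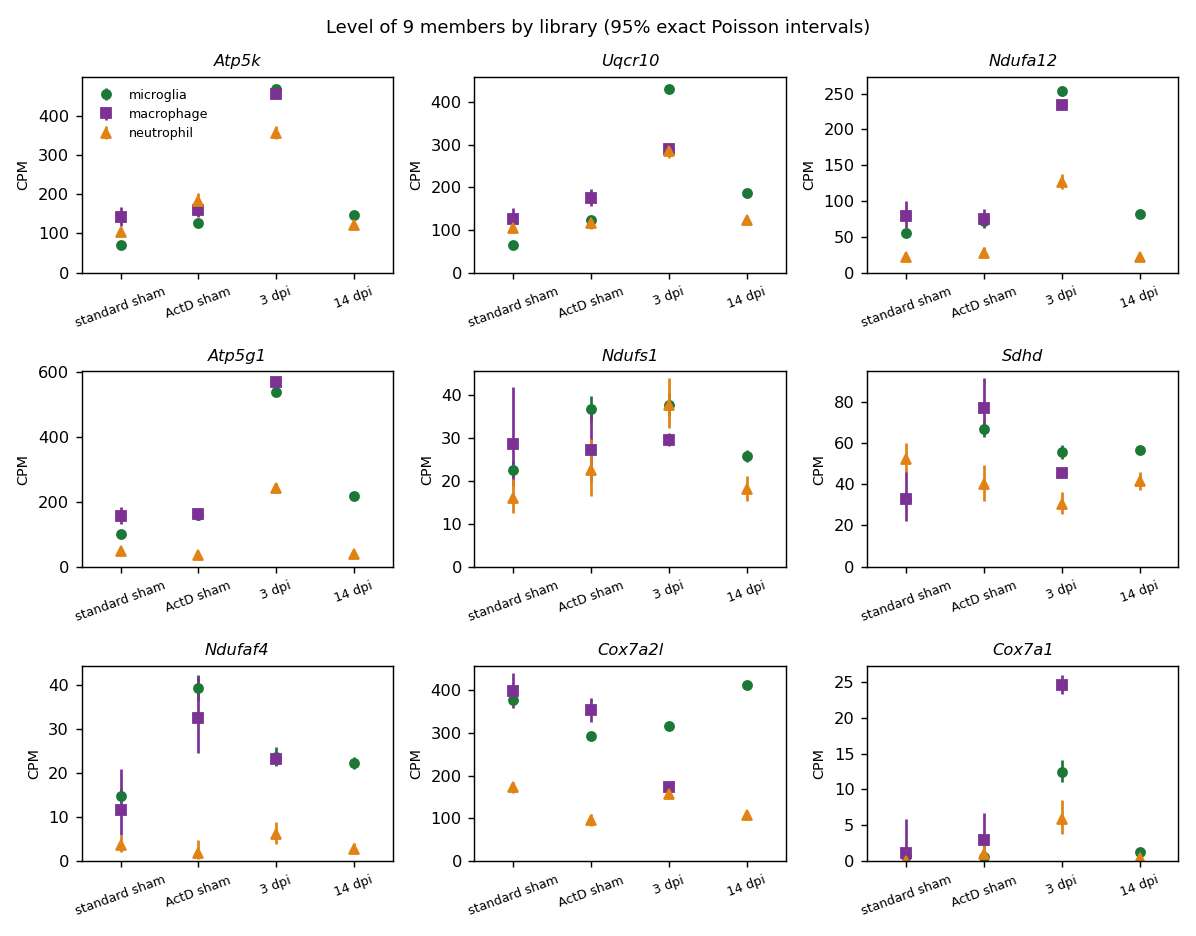
Level of 9 members (y axis, CPM) in the 4 libraries (x axis) in microglia, macrophages and neutrophils, with exact 95% Poisson intervals for counting error. Atp5k, Uqcr10 and Ndufa12 stand highest at 3 dpi in each class shown, Ndufs1 in microglia differs little between the ActD sham (36.7 CPM) and 3 dpi (37.6 CPM), and Cox7a2l in macrophages is lowest at 3 dpi (173 CPM).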

How the data were processed

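The authors sequenced CD45+ cells of the mouse spinal cord with droplet 3′ UMI chemistry and deposited, for each library, a matrix of raw UMI counts by gene and barcode. The submitters' processing notes name Cell Ranger and mm10, and the file headers give version 3.0.1 in 2 libraries (standard sham, 3 dpi) and 3.1.0 in the others (ActD sham, 14 dpi). The 4 matrices held 2439 to 11631 barcodes and 27447471 to 129935880 UMIs, with at least 500 UMIs per barcode. Gene positions were taken from GENCODE M21 (GRCm38).

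Cells with fewer than 600 genes, over 10% mitochondrial UMIs or UMIs of both a myeloid and a lymphoid marker were removed, as in the study's methods. The study's DoubletFinder was not used; the highest Scrublet scores were removed at 0.8% per 1000 cells (38 to 801 cells per library). Each library was clustered alone with scanpy 1.11.5 (10000 UMIs per cell, log, 2000 variable genes without the members and cell cycle genes, 30 components, Leiden at resolution 0.6), and clusters were named from fixed markers. UMIs were summed per class and library and scaled to CPM of the class total. Ratios were called past 1.5-fold for genes whose UMIs in both libraries came to 200 or more, with 0.5 UMI added per gene. Intervals were exact Poisson ones from scipy 1.17.1. Cells are not replicates and each condition is 1 library, so no test, standard deviation or p-value was made. Scaling factors of TMM came from edgeR 4.0.16 and integration from Seurat 5.3.0, both as alternatives.

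Genes named come from the 5 largest and 5 smallest ratios per comparison of microglia, macrophages and neutrophils, the member of each complex with the most UMIs, the isoform pairs, and for other lists the extremes in microglia. Sdhc, Ndufs1, Ndufaf2, Nrf1 and the parts of complexes were picked after values were seen. The members and lists were chosen with earlier results of these data known. Members with near-identical copies elsewhere in the genome may have lost or gained reads in the authors' counting. The code was tested on simulated data.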

Additional observations from a re-analysis of the deposited data

Results flagged for a closer look

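The summed log2 ratio of the members at 3 dpi over the ActD sham was positive in the myeloid classes, at 1.01 in microglia, 0.66 in macrophages and 0.90 in neutrophils, and negative in B cells, at -0.26. From 3 to 14 dpi it was -0.61 in microglia and -0.88 in neutrophils, and positive in B cells (0.34), T cells (0.19) and dendritic cells (0.14). These results were picked out because classes moved in opposite directions between the same libraries, with 1 library per side, and the difference between classes was not tested. The comparisons of a pair of libraries share both libraries, so anything that differed between the libraries acts on all classes of the pair. Relative to the median of all genes, the sum at 3 dpi over the ActD sham was 1.54 in microglia, 1.09 in macrophages, 0.13 in neutrophils and -0.09 in B cells. From 3 to 14 dpi it was -0.65 in microglia, -0.11 in neutrophils, 0.03 in B cells, -0.04 in T cells and -0.20 in dendritic cells. On that scale T and dendritic cells thus had the same sign as microglia and neutrophils.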

How the results depend on the processing

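All values here are log2 ratios of the summed CPM unless a count is named, and the cause of a shift was not tested. The settings by depth (a range of UMIs per cell), without cycling cells, without shallow clusters and by the median of all genes were added after seeing the data. So were those without the Spp1 and Lpl cluster and without neutrophil markers. This holds for every result below, also where a value is not marked as added. For microglia at 3 dpi over the ActD sham (1.01), the value was 1.47 with TMM scaling, 1.17 without mitochondrially encoded and ribosomal protein genes in the total, 0.94 with Seurat integration, 0.95 with the looser cell filter, 0.94 with the stricter one, 1.04 with the members and cell cycle genes kept for clustering, 1.04 with mixed-marker cells kept and 1.03 without doublet removal; added settings gave 0.82 in cells of 8000 to 16000 UMIs, 0.86 without cycling cells, 1.02 without shallow clusters and 1.54 with the median of all genes at 0. For 14 dpi over the ActD sham (0.40) the values in that order were 0.97, 0.52, 0.33, 0.35, 0.35, 0.43, 0.43 and 0.43, and with added settings 0.41 by depth, 0.41 without shallow clusters, 0.32 without the Spp1 and Lpl cluster and 0.92 by the median. For microglia of the standard over the ActD sham (-0.42) the sign turned with TMM scaling (0.12) and by the median (0.10), while other settings gave -0.38 by the reduced total, -0.46 by mean cell CPM, -0.49 with Seurat, -0.46 with the looser and -0.46 with the stricter filter, -0.38 with members and cell cycle genes kept, -0.39 with mixed cells kept, -0.36 without doublet removal, -0.33 by depth and -0.40 without shallow clusters.

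For macrophages (0.66) the values were 1.35 with TMM, 0.63 by the reduced total, 0.62 by mean cell CPM, 0.68 with Seurat, 0.47 with the looser and 0.50 with the stricter filter, 0.68 with members and cell cycle genes kept, 0.69 without doublet removal, 0.55 by depth and 1.09 by the median. For neutrophils at 14 over 3 dpi (-0.88) the sign turned with TMM (0.10), and the values were -0.97 by the reduced total, -0.97 by mean cell CPM, -0.94 with Seurat, -0.93 with the looser and -0.92 with the stricter filter, -0.96 with members and cell cycle genes kept, -0.91 with mixed cells kept, -0.68 without doublet removal, -0.64 at resolution 1.2 (where the class held 348 cells at 3 dpi in place of 1807), -1.07 in cells of 1500 to 4000 UMIs, -0.31 without neutrophil markers in the total and -0.11 by the median. The count of members past the threshold upward was 60 at 3 dpi, 37 at 2-fold (11.1% of all genes), 73 with TMM (27.5%) and 61 at a minimum of 20 UMIs (20.7%). At 14 dpi it was 11, 0 at 2-fold (4.48%), 60 with TMM (18.3%) and 13 at 20 UMIs (10.1%). No paired analysis was possible because each condition is 1 library, and for the same reason no replicate could be left out. Small classes limit the depth: 64 B cells and 111 neutrophils were found in the ActD sham.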
